A study of Mus musculus with 8 samples.

Results

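The genes described here are 10 members of the JAK-STAT pathway and its feedback inhibitors, *Socs1*, *Socs2*, *Socs3*, *Cish*, *Jak1*, *Jak2*, *Stat3*, *Stat4*, *Stat5a* and *Stat5b*. They were picked by gene name from the 26939 genes counted in the series, and all 10 were counted and tested. Bulk RNA-seq was performed on tumor-associated macrophages (TAMs) sorted alive as CD45+ and CD11b+ cells that carried F4/80 and lacked Gr-1. The tumors were EO771, a mouse breast cancer line placed in the mammary fat pad of female mice aged 8 to 14 weeks, and the cells were taken at day 21. Every group consisted of 2 libraries.

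WT control and WT αMARCO TAMs came from C57BL/6J mice. *Unc93b1* 3d/3d control and *Unc93b1* 3d/3d αMARCO TAMs came from mice whose mutated UNC93B1 leaves the endosomal receptors TLR3, TLR7 and TLR9 without function in all cells, so that the genotype is not restricted to macrophages. αMARCO is the rat IgG1 antibody ED31, of which 100 µg was given per dose every 3 days from day 3 to day 12. The control mice are labelled untreated or PBS while the methods name an isotype antibody, so which injection they received is not settled. Each control library was pooled from the TAMs of 3 mice. The genotype label of the second *Unc93b1* 3d/3d control library reads 3d/4d, while its title reads 3d/3d. With 2 libraries a group, the tests measure the spread between these samples, and how far it is technical is not known.

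Cytokines such as IL-6, IL-10, IL-12, interferons and GM-CSF bind receptors that carry Janus kinases (JAKs). The kinases phosphorylate the receptor and STAT transcription factors, which then enter the nucleus and switch on target genes. Among these targets are the SOCS genes and *Cish*, whose proteins bind the receptor or the kinase and dampen the same signal. In macrophages, *Socs1* is known as an inhibitor of interferon signalling and *Socs3* as the inhibitor of IL-6 signalling through STAT3, while STAT3 also carries the anti-inflammatory IL-10 signal. STAT4 is best known for IL-12 signalling in T and NK cells and is also made by activated dendritic cells.

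The library totals ranged from 15182618 to 26411936 counts, at which 3 counts, taken as the detection floor, correspond to 0.114 to 0.198 CPM (counts scaled to a common library size). This floor covers counting error only. Levels are CPM scaled with edgeR's TMM factors over all 8 libraries, unless given as FPKM, the authors' value per kilobase of gene length. The 2 *Unc93b1* 3d/3d αMARCO libraries stood apart from each other. Their counts differed by a chi-square of 132.53 per degree of freedom, against 9.22 to 15.09 in the other groups, and their log2 CPM differed by a root mean square of 1.02, against 0.436 to 0.579. Replicate 2 was the one far from the other groups, at a median root mean square of 1.08 from their libraries, against 0.635 for replicate 1. The libraries of the other groups had 0.731 to 0.875. Results that rest on these 2 libraries are therefore given with and without each. Fits without replicate 1 rest on replicate 2 alone for this group. *Unc93b1* had 540 and 660 CPM in *Unc93b1* 3d/3d control against 849 and 966 CPM in WT control (edgeR log2 fold change 0.58, adjusted P = 0.0125). The 3d allele changes the protein and does not delete the gene, so this level does not check the genotype. *Marco*, the target of the antibody, had 1 to 17 counts per library. *Adgre1*, the gene of F4/80, had 4870 to 12983 counts and *Csf1r* 15176 to 27948, and the 10 macrophage markers summed to between 8943 and 11980 CPM.

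Markers of other cell types were also present, and none of the markers on the 9 lists was at 0 in all 8 libraries. The summed 16 T cell markers had 172 and 196 CPM in WT control, 40.1 and 20.2 CPM in *Unc93b1* 3d/3d control, 18.1 and 28.4 CPM in WT αMARCO, and 12.8 and 13.5 CPM in *Unc93b1* 3d/3d αMARCO. The 10 mature dendritic cell markers, such as *Ccr7* and *Fscn1*, summed to 1172 and 718 CPM in WT control and to 218 to 394 CPM in the other 6 libraries. The largest part of the sum in those 6 was *Cd83*, with 131 to 313 CPM against 304 and 269 CPM in WT control. *Ccr7* had 9.26 to 16.5 CPM there against 214 and 119 CPM. The WT control libraries were thus the highest for both lists, and WT control replicate 1 was the higher of the pair for mature dendritic cell markers but not for T cell markers.

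The promoters of *Socs3*, *Socs1* and *Stat4* are shown because these were the genes called between the control genotypes. The sequences are from RefSeq (GRCm38.p6), read 5′ to 3′ on the strand of the gene, and cover the 250 bases before a transcription start, or the longest stretch of them that GENCODE M21 places in no exon. *Socs3* (ENSMUSG00000053113) lies on the minus strand of chr11:117966079-117970047, *Socs1* (ENSMUSG00000038037) on the minus strand of chr16:10782240-10785536, and *Stat4* (ENSMUSG00000062939) on the plus strand of chr1:51987148-52107189, all in GRCm38. Both RefSeq starts of *Stat4* are given. Capitals mark TTCNNNGAA, the short palindrome that most STAT dimers can bind.
Socs3, chr11:117969452-117969616 (minus strand): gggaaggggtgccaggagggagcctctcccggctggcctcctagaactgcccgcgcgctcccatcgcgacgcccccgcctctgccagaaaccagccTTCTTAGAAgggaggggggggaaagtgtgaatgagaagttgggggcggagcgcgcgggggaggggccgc
Socs1, chr16:10785537-10785786 (minus strand): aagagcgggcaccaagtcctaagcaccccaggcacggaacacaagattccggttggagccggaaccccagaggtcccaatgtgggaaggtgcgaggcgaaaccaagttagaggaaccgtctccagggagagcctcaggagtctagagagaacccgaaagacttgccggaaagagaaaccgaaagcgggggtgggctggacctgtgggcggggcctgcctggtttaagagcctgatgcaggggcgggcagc
Stat4, upstream start, chr1:51986898-51987147 (plus strand): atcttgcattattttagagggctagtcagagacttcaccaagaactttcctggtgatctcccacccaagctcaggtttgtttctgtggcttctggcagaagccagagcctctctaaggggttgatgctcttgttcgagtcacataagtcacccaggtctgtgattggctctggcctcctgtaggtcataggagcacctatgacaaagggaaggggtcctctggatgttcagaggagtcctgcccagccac
Stat4, downstream start, chr1:52007990-52008239 (plus strand): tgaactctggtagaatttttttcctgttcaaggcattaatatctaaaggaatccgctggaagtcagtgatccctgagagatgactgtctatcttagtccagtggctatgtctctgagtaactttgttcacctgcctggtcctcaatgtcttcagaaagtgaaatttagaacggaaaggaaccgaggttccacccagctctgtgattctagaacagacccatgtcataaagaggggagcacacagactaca
Of 32851 promoter windows of 250 bases searched, 2306 (7.02%) held at least 1 TTCNNNGAA, which reads the same on both strands. RefSeq windows were found for 9 of the 10 genes, with 12 windows in all, and *Socs2* was not among them. The only match in these 12 windows was TTCTTAGAA in the *Socs3* promoter, 154 to 146 bases before the start (chr11:117969512-117969520). In each of the other windows these letters were not found. The *Socs3* window lies inside the span of the gene given above, and 77 of its 250 bases are *Socs3* exon. A match is a description of the letters and not of binding.

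*Socs3* had by far the highest level of the 10 genes per gene length, with a mean of 229 FPKM over the 8 libraries (157 to 296), above 98.8% of the tested genes. It made up 85.9% to 92% of the summed FPKM of *Socs1*, *Socs2*, *Socs3* and *Cish* in each library. *Stat3* followed with a mean of 30.5 FPKM (20.6 to 37.2), *Jak2* with 28.7 (21.2 to 41.5), *Jak1* with 27.2 (18.8 to 31.2), *Stat5b* with 20.5 (15.1 to 23.2) and *Socs1* with 18.7 (11.6 to 24.4). *Stat3*, *Jak2* and *Jak1* were each above *Stat5b* in all 8 libraries, while the order among these 3 genes, and that of *Stat5b* and *Socs1*, changed between libraries. *Stat5a* had a mean of 7.07 FPKM (5.17 to 8.59), below the range of *Socs1*, and *Cish* a mean of 5.87 FPKM (3.11 to 7.41). *Stat4* and *Socs2* were the lowest, with means of 2.82 FPKM (1.21 to 7.87) and 1.41 FPKM (0.509 to 3.92), and their ranges overlapped. *Stat5b* was 2.56 to 3.34 times as high as its close relative *Stat5a* in FPKM in each library, and *Stat3* was 4.73 to 21.4 times as high as *Stat4*.

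**Figure D1:**
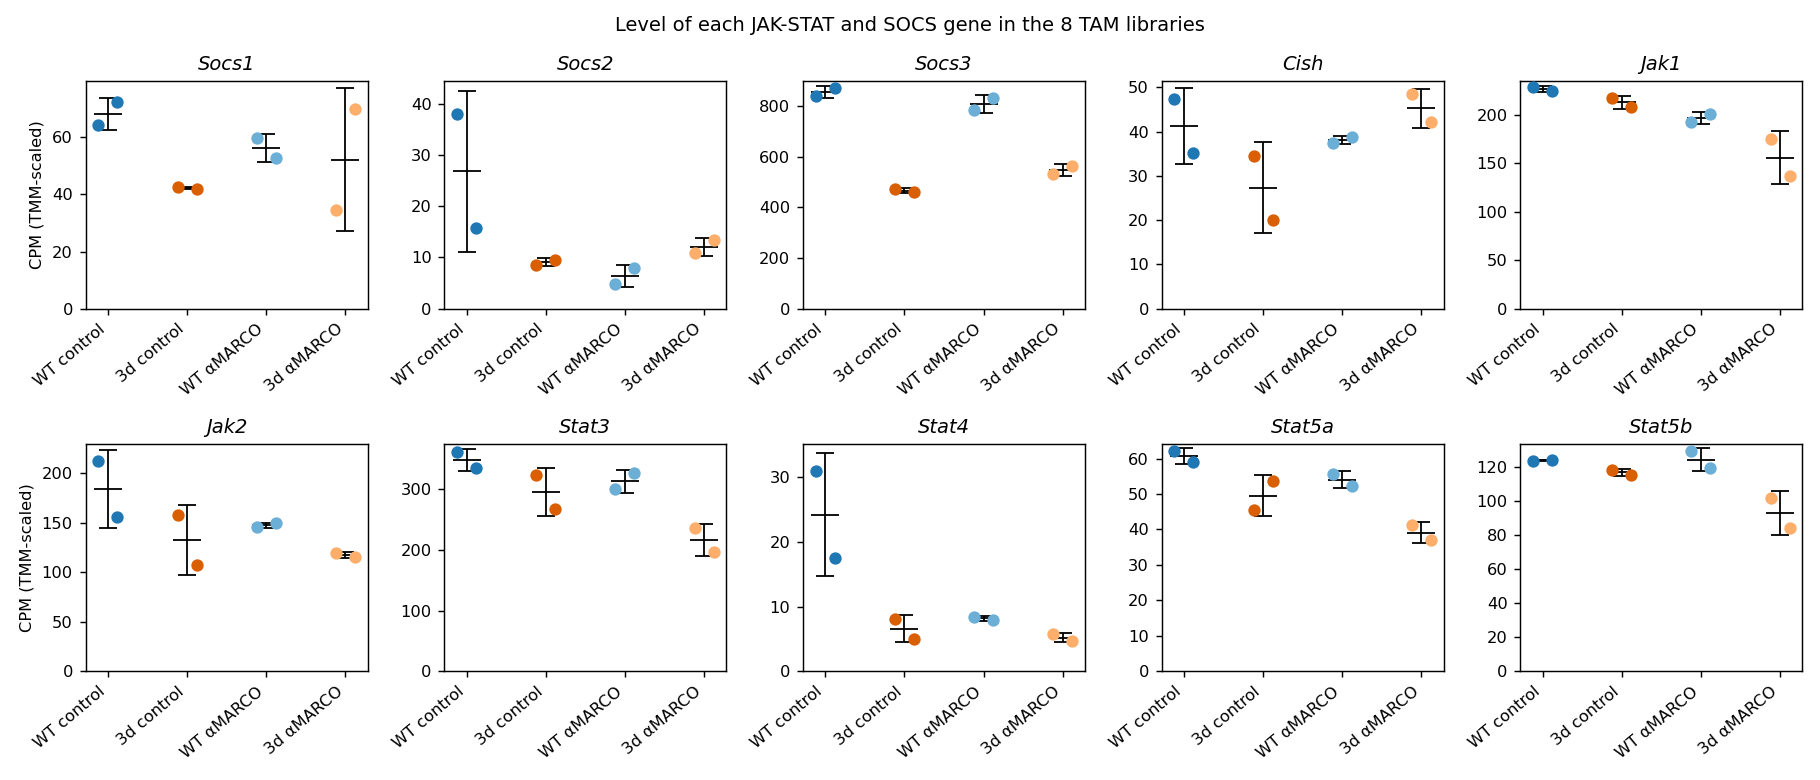
Level of each of the 10 genes in CPM (y axis from 0) in the 4 groups. Points are libraries (2 per group) and black bars the mean ± SD. *Socs3* is higher in all 4 WT libraries than in all 4 *Unc93b1* 3d/3d libraries, while *Stat4* is highest in the 2 WT control libraries.

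The comparison of WT control with *Unc93b1* 3d/3d control TAMs asks how the lack of endosomal TLR function relates to the expression of these genes in TAMs of control mice. *Socs1*, *Socs3* and *Stat4* were higher in WT. The 3 of 10 genes called stand against 13.0% of all 15600 tested genes called in either direction, and 6.58% called higher in WT. A gene was called when edgeR's quasi-likelihood test gave an adjusted P no greater than 0.05 and a log2 fold change of 0.5 or more in size. All 10 log2 fold changes were above 0, with a median of 0.52, against -0.0036 over all tested genes.

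*Socs3* had 838 and 870 CPM in WT control and 472 and 458 CPM in *Unc93b1* 3d/3d control. The replicates of both groups lay close together and the groups were far apart. Its level was 1.82-fold higher in WT (log2 0.86, SE 0.097, 95% interval 0.64 to 1.08, adjusted P = 0.000678, edgeR). *Socs3* was called under all 6 other settings and with each of the 4 libraries left out, with log2 fold changes of 0.83 to 0.90.

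*Socs1* had 64.3 and 72.2 CPM in WT control and 42.6 and 42 CPM in *Unc93b1* 3d/3d control. The groups did not overlap. It was 1.6-fold higher in WT (log2 0.67, SE 0.104, 95% interval 0.44 to 0.91, adjusted P = 0.00314, edgeR) and was called with each library left out. In a model of all 8 libraries, whose spread includes the *Unc93b1* 3d/3d αMARCO pair, the adjusted P was 0.299.

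*Stat4* had 30.9 and 17.5 CPM in WT control and 8.04 and 5.08 CPM in *Unc93b1* 3d/3d control. The groups did not overlap, although the WT replicates differed 1.77-fold. It had the largest fold change of the 10 genes, 3.67-fold higher in WT (log2 1.88, SE 0.342, 95% interval 1.05 to 2.71, adjusted P = 0.0153, edgeR). The call was lost without *Unc93b1* 3d/3d control replicate 1 (adjusted P = 0.0559, log2 2.24) or replicate 2 (adjusted P = 0.103, log2 1.57), and held under the 6 other settings.

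*Socs2*, an inhibitor best known from growth hormone signalling, had 37.9 and 15.7 CPM in WT control and 8.48 and 9.6 CPM in *Unc93b1* 3d/3d control. WT control replicate 1 was 2.42 times as high as replicate 2, and the log2 fold change of 1.55 (SE 0.474) did not pass (adjusted P = 0.102, edgeR). The log2 fold change of *Socs2* was 0.79 without WT control replicate 1 and 2.06 without replicate 2. Fits that leave 1 WT control library do not measure the spread within WT control. *Cish*, a STAT5 target that dampens IL-2 family and GM-CSF signals, had 47.2 and 35.1 CPM in WT control and 34.6 and 20.1 CPM in *Unc93b1* 3d/3d control. Its log2 fold change of 0.58 (SE 0.295) did not pass (adjusted P = 0.241, edgeR), and the groups were separated by less than the spread within either. *Cish* was called with no low-count filter (adjusted P = 0.000686, edgeR). Its log2 fold change was 1.02 without *Unc93b1* 3d/3d control replicate 1.

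The kinases and the other STATs differed less. *Jak2*, which serves the receptors of GM-CSF, IL-12 and interferon-γ, had 212 and 156 CPM in WT control and 158 and 107 CPM in *Unc93b1* 3d/3d control, and these groups overlapped. *Jak1*, used by interferon and IL-6 receptors, had a log2 fold change of 0.08 with a 95% interval of -0.13 to 0.28. *Stat5b* had 0.07 with an interval of -0.13 to 0.27, *Stat3* 0.22 with an interval of -0.04 to 0.48, and *Stat5a* 0.27 with an interval of 0.03 to 0.52. None of these 5 genes passed (adjusted P = 0.112 to 0.637, edgeR). For *Jak1*, *Stat5b* and, narrowly, *Stat3* the intervals leave out differences of 0.5 on the log2 scale, the size used for a call. *Stat5b* (chr11:100780731-100850724), *Stat5a* (chr11:100859351-100885169) and *Stat3* (chr11:100885098-100939540) are neighbours. The exons of *Stat3* and *Stat5a* overlap by 72 bases on opposite strands, and whether the counting used strand is not given in the sources used here.

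Markers of other immune cell types that were called moved in the same direction as *Stat4* in this comparison. Of the tested markers, 16 of 16 of T cells, 6 of 9 of mature dendritic cells, 4 of 12 of NK cells, 3 of 8 of type 1 dendritic cells and 1 of 3 of B cells were called higher in WT, and none of these was called lower. NK cell markers summed to 182 and 161 CPM in WT control against 71.8 and 45.2 CPM in *Unc93b1* 3d/3d control. The largest parts in WT control were *Gzmb* (63.4 and 57.8 against 16.5 and 4.67 CPM) and *Klrk1* (51.4 and 40.4 against 34.8 and 34.1 CPM). On the NK cell list *Ncr1*, *Klra4* and *Klra8* overlapped between the groups, while the other members were higher in both WT control libraries. Type 1 dendritic cell markers summed to 367 and 343 CPM against 142 and 146 CPM. The largest part of this sum was *Cadm1* (181 and 188 against 60.5 and 81.7 CPM). On that list *Tlr3* was lower in both WT control libraries and *Clec9a* overlapped between the groups, while the other members were higher in both. B cell markers summed to 39.4 and 43.7 CPM against 7.54 and 4.93 CPM, mostly through *Cd79b* (36.7 and 41.2 against 2.26 and 2.89 CPM). Among the other B cell markers, *Pax5* was lower in both WT control libraries (0.527 and 0.888 against 2.2 and 0.965 CPM) and *Ms4a1* overlapped. The median log2 fold change of the 3 tested B cell markers was 0.03. Of the other lists, 2 of 10 macrophage markers were called higher and 2 lower, 1 of 8 neutrophil markers higher, 2 of 6 fibroblast markers lower and 0 of 3 tumor epithelium markers. The part of these markers in the difference of *Stat4* was not tested. In bulk RNA, fewer cells of a type and less RNA per cell cannot be told apart.

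*Stat4* and *Socs2* were higher in WT control replicate 1 than in replicate 2, as were the summed mature dendritic cell markers and all 10 of their members, while *Socs3*, *Socs1* and the summed T cell markers were higher in replicate 2. The summed type 1 dendritic cell markers were also higher in replicate 1, through *Flt3* (49.2 against 19.9 CPM) and *Zbtb46* (28.6 against 14.7 CPM), while the other 6 of the 8 were higher in replicate 2. NK cell markers summed to more in replicate 1, and the B cell sum, higher in replicate 2, was mostly *Cd79b* (36.7 and 41.2 CPM). The part of these cells in the spread of *Stat4* and *Socs2* was not tested.

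**Figure D2:**
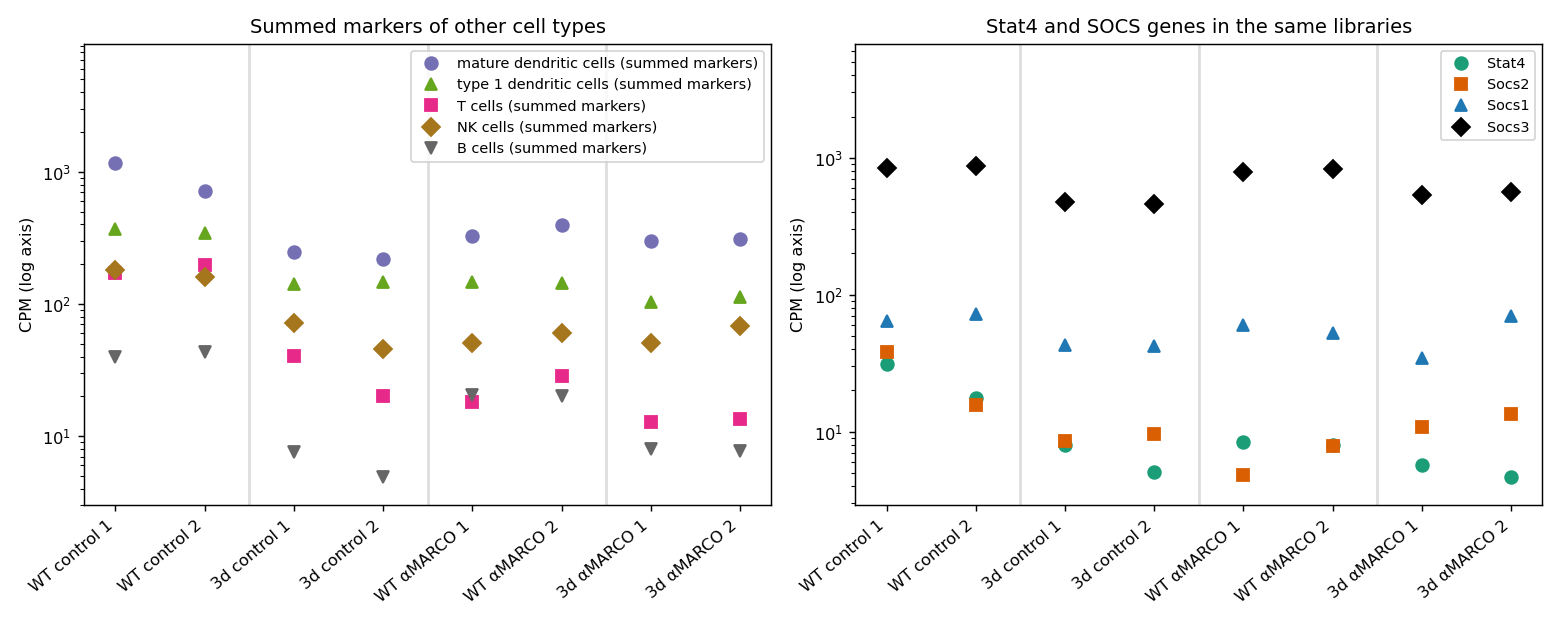
Left, summed CPM (log axis) of marker genes of 5 other immune cell types in each of the 8 libraries. Right, CPM (log axis) of *Stat4*, *Socs2*, *Socs1* and *Socs3* in the same libraries. *Stat4* and all 5 marker sums are highest in the WT control libraries, where *Socs3* is 838 and 870 CPM against 782 and 832 CPM in WT αMARCO.

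Other genes of the pathway were taken from 5 lists of 97 genes, of which 95 were counted. Of the 81 tested between the control genotypes, 19 were called higher and 7 lower in WT, which is 32.1% against 13.0% of all tested genes. In a model of all 8 libraries these were 2 and 1 of 81, and 2.19% of all tested genes were called there. Of the cytokine ligands, 8 of 13 were called higher and 0 lower (61.5%), with a median log2 fold change of 0.78. *Il12b*, the shared subunit of IL-12 and IL-23 that signal through STAT4 and STAT3, had 26.1 and 23.2 CPM in WT control and 0.817 and 0.711 CPM in *Unc93b1* 3d/3d control (log2 4.99, SE 0.232, adjusted P = 3.36e-06, edgeR). *Ifng*, the interferon made by T and NK cells, had 151 and 144 counts in WT control and 14 and 0 in *Unc93b1* 3d/3d control (log2 4.26, SE 0.916, adjusted P = 0.0344, edgeR). *Il6*, whose signal runs through STAT3, had 4.85 and 5.88 CPM against 1.7 and 2.23 CPM (log2 1.42, SE 0.311, adjusted P = 0.0143, edgeR).

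*Il23a*, the second subunit of IL-23, was called from low counts of 32 and 30 against 8 and 8 (log2 1.86, adjusted P = 0.0377, edgeR), and only 3 of 10 alternatives called it. It was lost with any of the 4 libraries left out. *Ifng* was called by 4 of 10 and was lost without either WT control library. *Il12b* was called by all 10, and *Il6* by 8 of 10, its call being lost without *Unc93b1* 3d/3d control replicate 1.

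Of the 31 tested receptors that use JAKs, 6 were called higher and 6 lower in WT (38.7%, against 13.0% of all tested genes). Their median log2 fold change was -0.05. *Il12rb2*, the signalling chain of the IL-12 receptor that recruits STAT4, had 11.6 and 10 CPM in WT control and 2.33 and 1.17 CPM in *Unc93b1* 3d/3d control (log2 2.64, SE 0.332, adjusted P = 0.0012, edgeR). *Il27ra*, the receptor of IL-27, was higher by 2.15 (SE 0.321, adjusted P = 0.00279, edgeR) and *Il2ra*, the IL-2 receptor chain CD25, by 1.75 (SE 0.422, adjusted P = 0.0486, edgeR), both on the log2 scale. *Epor*, the erythropoietin receptor, was higher by 1.19 (SE 0.349, adjusted P = 0.0438, edgeR). *Il2ra* and *Epor* were each called by 6 of 10 alternatives, *Il2ra* losing its call without either WT control library, and *Epor* without WT control replicate 1 or *Unc93b1* 3d/3d control replicate 2. *Il12rb2* and *Il2ra* were highest in the WT control libraries, as were the summed T cell and mature dendritic cell markers. Within WT control, *Il2ra* was higher in replicate 1 (30.3 against 19.6 CPM), as were the mature dendritic cell markers and unlike the T cell markers. The part of either cell type was not tested.

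Among 15 other inhibitors and phosphatases 3 were called higher and 0 lower (20.0%, against 13.0% of all tested genes). *Ptpn6*, the phosphatase SHP-1 that removes phosphate from JAKs, had 687 and 801 CPM in WT control and 395 and 438 CPM in *Unc93b1* 3d/3d control (log2 0.82, SE 0.113, adjusted P = 0.00188, edgeR). *Cblb*, a ubiquitin ligase, was higher by 0.61 (SE 0.112, adjusted P = 0.00677, edgeR) and *Ptprc*, the phosphatase CD45, by 0.53 (SE 0.109, adjusted P = 0.0109, edgeR). Both calls were lost without *Unc93b1* 3d/3d control replicate 2, as was that of *Ptprc* without WT control replicate 2. The 5 other JAK and STAT genes gave 0 calls by edgeR and 0 by DESeq2.

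Of 17 genes often induced by STAT3 or STAT5, 2 were called higher and 1 lower (17.6%, against 13.0% of all tested genes), with a median log2 fold change of 0.12. *Id1*, a helix-loop-helix inhibitor, was higher in WT by 0.93 (SE 0.159, adjusted P = 0.00496, edgeR) and *Ccnd2*, a cyclin, by 0.58 (SE 0.101, adjusted P = 0.00566, edgeR), the latter not called without *Unc93b1* 3d/3d control replicate 2. *Bcl2l1*, which encodes the survival protein BCL-XL, was lower in WT, with 108 and 117 CPM against 173 and 172 CPM (log2 -0.64, SE 0.093, adjusted P = 0.00259, edgeR).

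**Figure D3:**
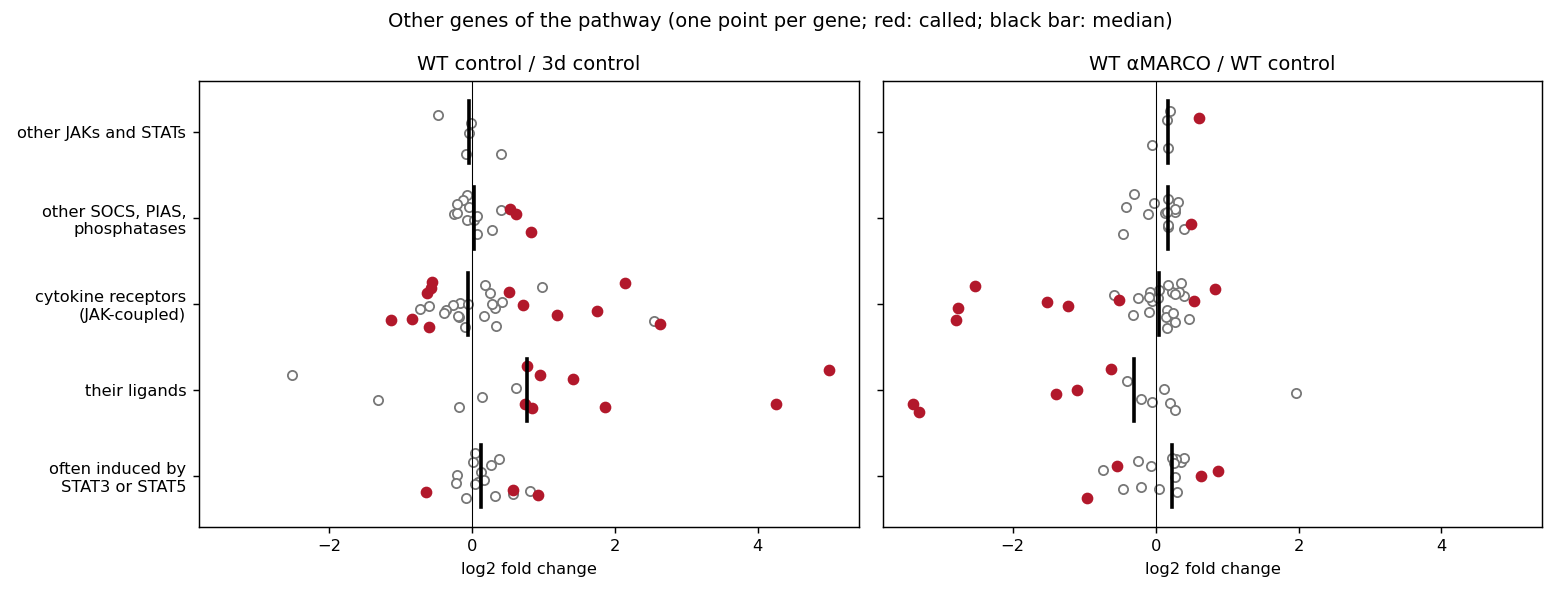
Log2 fold changes (x axis) of the other tested pathway genes by list, in WT control against *Unc93b1* 3d/3d control (left) and in WT αMARCO against WT control (right). Points are genes, red those called, and black bars list medians. The ligand median is 0.78 on the left and -0.30 on the right.

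αMARCO treatment of WT mice was compared with WT control to ask which of the genes moved with the antibody. *Stat4* was lower with αMARCO and was the 1 gene of 10 called, against 20.7% of 15630 tested genes called in either direction and 11.8% called lower. It had 8.45 and 7.92 CPM in WT αMARCO against 30.9 and 17.5 CPM in WT control. Both αMARCO libraries were below both control libraries, and they overlapped the *Unc93b1* 3d/3d control libraries at 8.04 and 5.08 CPM. *Stat4* fell by 1.56 on the log2 scale, a level 2.95-fold lower (SE 0.269, 95% interval -2.20 to -0.91, adjusted P = 0.0058, edgeR). The call was lost without WT αMARCO replicate 1 (adjusted P = 0.0892, log2 -1.60), without replicate 2 (adjusted P = 0.0879, log2 -1.51) and in the model of all 8 libraries (adjusted P = 0.0674).

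The WT control libraries enter both this comparison and the one between genotypes, so that a peculiarity of these libraries enters both. Of the tested markers, 16 of 16 of T cells, 7 of 9 of mature dendritic cells, 6 of 10 of NK cells, 5 of 8 of type 1 dendritic cells and 1 of 3 of B cells were called lower with αMARCO. So were 3 of 6 neutrophil, 3 of 6 fibroblast, 2 of 3 tumor epithelium and 3 of 10 macrophage markers, and no marker on any list was called higher. Their part in the fall of *Stat4* was not tested.

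*Socs2* had 4.86 and 7.88 CPM in WT αMARCO against 37.9 and 15.7 CPM in WT control. The groups did not overlap, but the replicates of both spread widely. Its log2 fold change of -2.05 was the largest of the 10 genes (SE 0.61, 95% interval -3.97 to -0.14) and did not pass (adjusted P = 0.0955, edgeR), while DESeq2 called it (adjusted P = 0.0142). Its log2 fold change was -1.29 without WT control replicate 1 and -2.55 without replicate 2. These fits do not measure the spread within WT control.

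*Socs3* did not differ detectably between WT αMARCO, with 782 and 832 CPM, and WT control. Its log2 fold change was -0.07 with a 95% interval of -0.27 to 0.13, and the adjusted P was 0.552 (edgeR). *Socs1* had 59.6 and 52.7 CPM in WT αMARCO, below both WT control libraries, and missed the threshold with a log2 fold change of -0.27 (SE 0.097, adjusted P = 0.0506, edgeR). *Cish* had 37.5 and 38.8 CPM, between its WT control replicates.

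Among the kinases, *Jak1* had 193 and 201 CPM in WT αMARCO against 229 and 225 CPM in WT control (log2 -0.20, 95% interval -0.37 to -0.03). *Jak2* had 146 and 149 CPM against 212 and 156 CPM (log2 -0.31, interval -0.63 to 0.01). *Stat3* and *Stat5a* had log2 fold changes of -0.14 and -0.16, and *Stat5b* had 0.01 with an interval of -0.16 to 0.18. None of these 5 genes passed (adjusted P = 0.0719 to 0.922, edgeR). Of the 10 log2 fold changes 9 were below 0, with a median of -0.18 against -0.01 over all tested genes.

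Of 78 tested genes on the 5 pathway lists, 6 were called higher and 13 lower with αMARCO. This is 24.4%, against 20.7% of all tested genes. The counts became 0 and 1 in the model of all 8 libraries, where 0.987% of all tested genes were called. Among 29 receptors 2 were called higher and 6 lower (27.6%, against 20.7% of all tested genes). *Il2rb*, the IL-2 and IL-15 receptor chain that recruits STAT5, had 5.3 and 7.57 CPM in WT αMARCO against 43.8 and 46.3 CPM in WT control (log2 -2.79, SE 0.156, adjusted P = 2.23e-05, edgeR). *Il2ra* fell by 2.76 (SE 0.397, adjusted P = 0.00578, edgeR), *Il12rb2* by 2.53 (SE 0.233, adjusted P = 0.000127, edgeR) and *Il27ra* by 1.52 (SE 0.205, adjusted P = 0.000695, edgeR) on the log2 scale. Each of these 4 receptor genes was called by 9 of 10 alternatives, all but the model of all 8 libraries.

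Among 12 ligands 0 were called higher and 5 lower with αMARCO (41.7%, against 20.7% of all tested genes). *Il12b* had 2.23 and 2.39 CPM against 26.1 and 23.2 CPM (log2 -3.40, SE 0.172, adjusted P = 1.93e-05, edgeR) and was called by all 10 alternatives. *Ifng* had 4 and 34 counts against 151 and 144 (log2 -3.31, SE 0.591, adjusted P = 0.00764, edgeR), *Il6* fell by 1.10 (SE 0.265, adjusted P = 0.0102, edgeR), and *Il23a* fell by 1.39 (SE 0.468, adjusted P = 0.0429, edgeR) with 3 of 10 alternatives calling it. The call of *Ifng* was lost without either WT control library, that of *Il6* without WT αMARCO replicate 1, and that of *Il23a* with any library left out. *Stat2*, part of the type I interferon complex, was the 1 of 5 other JAK and STAT genes called, with 706 and 675 CPM in WT αMARCO against 435 and 474 CPM (log2 0.61, SE 0.089, adjusted P = 0.000976, edgeR). *Socs4* was the 1 of 15 other inhibitors called (log2 0.50, SE 0.084, adjusted P = 0.00188, edgeR), and 6 of 10 alternatives called it, not those without WT control replicate 1 or WT αMARCO replicate 1. The shares called were 20.0% of the other JAK and STAT genes and 6.67% of the other inhibitors, against 20.7% of all tested genes.

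Of the 17 genes often induced by STAT3 or STAT5, 2 rose and 2 fell, a share of 23.5% against 20.7% of all tested genes. *Il1rn*, the IL-1 receptor antagonist, had 636 and 766 CPM with αMARCO against 361 and 411 CPM (log2 0.87, SE 0.112, adjusted P = 0.000651, edgeR), and *Bcl6*, a transcriptional repressor, rose by 0.64 (SE 0.088, adjusted P = 0.000756, edgeR). *Id1* fell by 0.96 (SE 0.156, adjusted P = 0.00162, edgeR) and *Ccnd2* fell by 0.54 (SE 0.079, adjusted P = 0.000977, edgeR), the latter not called without WT control replicate 1.

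**Figure D4:**
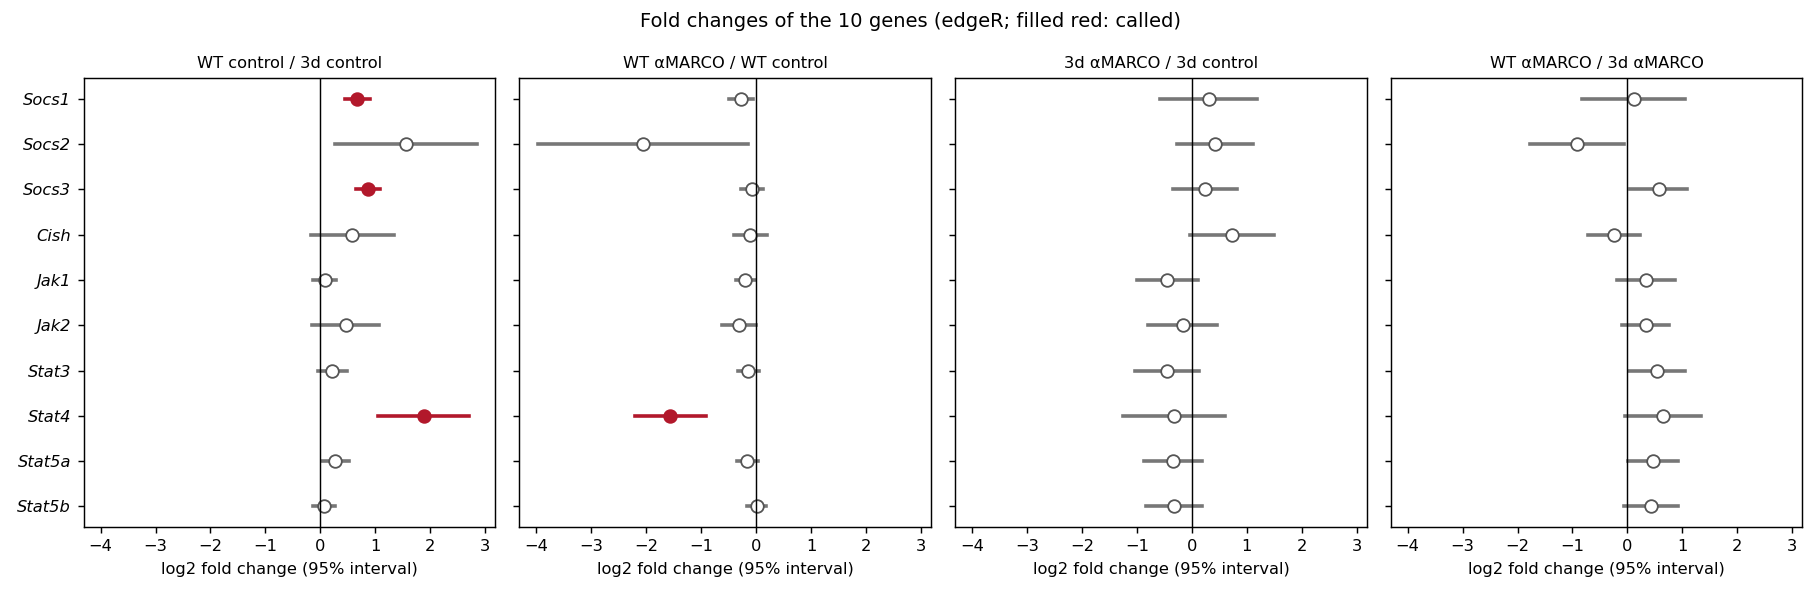
Log2 fold change (x axis) of each of the 10 genes with its 95% interval from edgeR in 4 comparisons. Filled red points are called. *Socs1*, *Socs3* and *Stat4* are called on the left panel, *Stat4* on the second, and 0 genes on the others.

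In *Unc93b1* 3d/3d TAMs, αMARCO was compared with control. None of the 10 genes was called, against 0.0% of 15428 tested genes, and 0 of 10 passed an unadjusted P of 0.05 (edgeR), as did 744 of all tested genes. DESeq2 called 0 of the 10 genes and 52 genes in all. *Socs1* had 34.4 CPM in replicate 1 and 69.8 CPM in replicate 2, on either side of the 42.6 and 42 CPM of control. Its log2 fold change was 0.31 with both libraries, 0.74 without replicate 1 and -0.30 without replicate 2, so its direction depended on the library.

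*Socs3* had 532 and 562 CPM with αMARCO, above both *Unc93b1* 3d/3d control libraries (log2 0.24, SE 0.237, adjusted P = 0.831, edgeR). *Cish* had 48.4 and 42.2 CPM against 34.6 and 20.1 CPM (log2 0.74, SE 0.311, adjusted P = 0.823, edgeR), and *Socs2* had 10.8 and 13.3 CPM against 8.48 and 9.6 CPM (log2 0.42, SE 0.286, adjusted P = 0.823, edgeR). *Stat4* had 5.74 and 4.7 CPM, overlapping its control libraries.

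*Jak1* had 175 and 136 CPM against 218 and 208 CPM in control, and *Stat3* 235 and 197 CPM against 324 and 267 CPM, each with a log2 fold change of -0.45. *Stat5a* had 41.3 and 37 CPM against 45.6 and 53.6 CPM, and *Stat5b* 102 and 83.8 CPM against 118 and 115 CPM. For these 4 genes both αMARCO libraries were below both control libraries, and none passed (adjusted P = 0.823 for each, edgeR). Without *Unc93b1* 3d/3d αMARCO replicate 1, *Jak1* (log2 -0.63) and *Stat3* (log2 -0.57) were called along with *Socs1*, as were 34.1% of all tested genes. Without replicate 2, 0 of the 10 genes and 3.41% of all tested genes were called. In such fits the remaining library is assumed to vary like the other group. Of the 78 tested genes of the pathway lists 0 were called by edgeR, while DESeq2 called 2 of 91. Without replicate 1, 16 of 79 were called higher and 12 lower, and without replicate 2, 8 of 80 higher and 1 lower.

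Between the αMARCO-treated genotypes, 0 of the 10 genes was called, against 0.0% of 15722 tested genes. *Socs2*, *Socs3*, *Stat3* and *Stat5a* passed an unadjusted P of 0.05 (edgeR), as did 1076 of all tested genes. DESeq2 called 0 of the 10 genes and 195 in all. *Socs3* was higher in both WT αMARCO libraries than in both *Unc93b1* 3d/3d αMARCO libraries, with a log2 fold change of 0.56 (SE 0.205, 95% interval 0.04 to 1.09, adjusted P = 0.709, edgeR). The log2 fold change of *Socs3* was 0.53 without *Unc93b1* 3d/3d αMARCO replicate 1 and 0.60 without replicate 2. These fits do not measure the spread within *Unc93b1* 3d/3d αMARCO.

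*Socs2* was lower in WT αMARCO than in *Unc93b1* 3d/3d αMARCO, with a log2 fold change of -0.92 (SE 0.331, adjusted P = 0.709, edgeR), the opposite sign to that in control TAMs. *Stat3*, *Stat4*, *Stat5a* and *Stat5b* had log2 fold changes of 0.54, 0.65, 0.47 and 0.42, and for each both WT libraries were above both *Unc93b1* 3d/3d libraries. Without *Unc93b1* 3d/3d αMARCO replicate 1, 7 of the 10 genes were called, as were 38.6% of all tested genes. Without replicate 2, *Socs1* and *Socs3* were called, as were 7.45% of all tested genes. *Socs1* had a log2 fold change of 0.11 with both libraries, -0.31 without replicate 1 and 0.71 without replicate 2. Of the 77 tested pathway genes 0 were called by edgeR, while DESeq2 called 1 of 93. Without replicate 1, 19 of 79 were called higher and 13 lower, and without replicate 2, 8 of 79 higher and 6 lower.

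**Figure D5:**
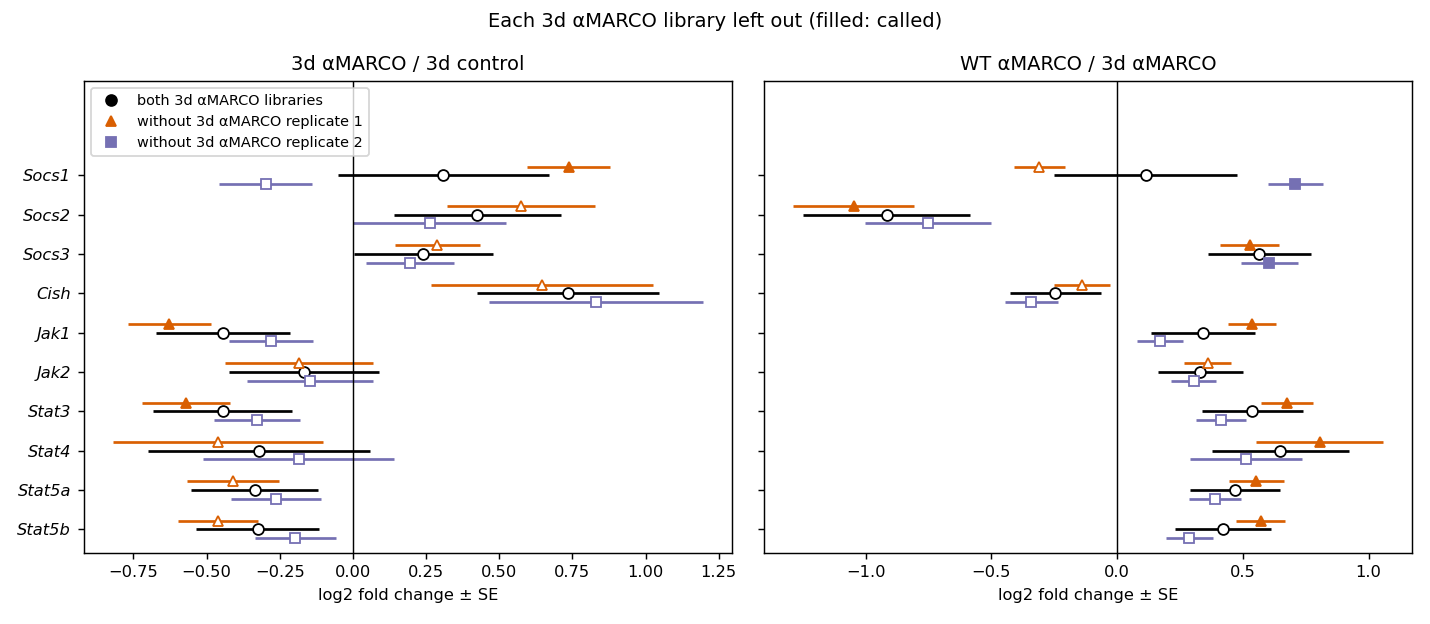
Log2 fold change ± SE (x axis) of each of the 10 genes in the 2 comparisons that use *Unc93b1* 3d/3d αMARCO TAMs, with both of these libraries and with each left out. Filled symbols are called. *Socs1* changes sign in both panels, from 0.74 to -0.30 on the left, while *Socs3* stays between 0.53 and 0.60 on the right.

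Whether αMARCO moved the genes differently in the 2 genotypes was tested as the difference of its effects, WT minus *Unc93b1* 3d/3d, over all 8 libraries. None of the 10 genes was called, against 0.0% of 16620 tested genes, and 3 of the 10 passed an unadjusted P of 0.05 (edgeR), as did 2549 of all tested genes. The 3 were *Socs2*, *Stat4* and *Cish*. *Socs2* had a difference of -2.48 on the log2 scale (SE 0.58, 95% interval -3.82 to -1.15, adjusted P = 0.31, edgeR), being lower with αMARCO in both WT libraries and higher in both *Unc93b1* 3d/3d libraries. DESeq2 called it (adjusted P = 0.00357) as the 1 of 10 genes, with 200 called in all.

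*Stat4* had a difference of -1.24 (SE 0.466, adjusted P = 0.318, edgeR) and *Cish* one of -0.84 (SE 0.367, adjusted P = 0.324, edgeR). For *Stat4*, the 2 effects had the same sign, with -1.56 in WT and -0.32 in *Unc93b1* 3d/3d TAMs. For *Cish* they were -0.10 and 0.74. Without *Unc93b1* 3d/3d αMARCO replicate 1, *Socs1* was called, as were 36.4% of all tested genes, and without replicate 2, 0 of the 10 genes and 3.45% of all tested genes were called. Of the 81 tested pathway genes 0 were called by edgeR, while DESeq2 called 1 above and 3 below 0 of 95. Without replicate 1, 13 of 85 were called above and 14 below 0, and without replicate 2, 3 of 85 above and 5 below.

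The genes whose level most resembled that of each of the 10 genes were found by Pearson's r of log2 CPM over the 8 libraries, among 10480 genes with a mean of at least 5 CPM. These r describe libraries that share their groups, depth and cell composition, and with 8 libraries they carry no test. *Stat4* was most like *Net1* (r = 0.99), *Birc2* (0.988) and *Traf1* (0.982). *Socs3* was most like *Htra4* (r = 0.992), *Map4k1* (0.989) and *Fpr2* (0.987), and *Socs1* was most like *Tap2* (r = 0.994), *Cyc1* (0.983) and *Ift22* (0.979). *Socs2*, with the largest range of the 10 genes at 2.94 on the log2 CPM scale, was most like *Ffar2* (r = 0.95), *Dcps* (0.948) and Rpl14-ps1 (0.941). The closest gene was *Man2a1* for *Jak1* (r = 0.995), *Nck2* for *Jak2* (0.933), *Phlpp1* for *Stat3* (0.975), *Vps52* for *Stat5a* (0.98), *Susd6* for *Stat5b* (0.978) and *Erich1* for *Cish* (0.916).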

How the data were processed

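Bulk RNA-seq of sorted TAMs gave 8 libraries in 4 groups of 2. Per the labels, reads were cleaned with fastp, aligned to GRCm38 with HISAT2 2.0.5 and assigned to genes with featureCounts 1.5.0. What the authors deposited were raw counts, without normalization, and FPKM, scaled by the authors to gene length and to a library size that worked out at 90.9% to 104.7% of the count total. The deposited tables also hold normalized counts, group means, and the fold changes and p-values of DESeq2 1.40.2, which were not used. Joining the 3 tables on the gene identifier gave 26939 genes. Of 95230 counts present in 2 tables, 0 differed, and a gene left out of a table was given 0 counts.

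Counts were tested in R 4.3.3 with edgeR 4.0.16 (TMM, filterByExpr, robust quasi-likelihood test, Benjamini-Hochberg adjustment over all tested genes), on the 4 libraries of each comparison, or on all 8 for the difference of the αMARCO effects. A gene was called at an adjusted P no greater than 0.05 and a log2 fold change of 0.5 or more in size, after the study's thresholds. The log2 CPM used for likeness had a prior count of 2. The procedure was tested on simulated data. Alternatives were DESeq2 1.42.0, its size factors, no low-count filter, 10 counts in every library, a block for the replicate number, all 8 libraries in 1 model, no fold change minimum, and each library left out. The sequences came from RefSeq, and the coordinates of all 10 genes matched GENCODE M21.

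All 10 genes are named in every comparison, and up to 4 called genes of each pathway list, those with the largest change among genes whose groups did not overlap and with a mean of at least 10 counts in the higher group. For likeness the 3 genes of highest r were found for each. The genes and lists were chosen with earlier results of these data known. One gene of the pathway lists is not reported here by name.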

Additional observations from a re-analysis of the deposited data

Results flagged for a closer look

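*Socs2* and *Socs3* came up because both αMARCO libraries lay on one side of both control libraries in WT TAMs and on the other side in *Unc93b1* 3d/3d TAMs. For *Socs2* the difference of the αMARCO effects was -2.48 on the log2 scale, which edgeR did not call (adjusted P = 0.31) and DESeq2 called (adjusted P = 0.00357). Its adjusted P ranged from 0.00357 to 0.319 over 5 alternatives that kept all libraries, and the difference ranged from -2.99 to -1.72 with each of the 8 libraries left out, the smallest being without WT control replicate 1. For *Socs3* the difference was -0.315 (adjusted P = 0.439, edgeR), made of -0.07 in WT and 0.24 in *Unc93b1* 3d/3d TAMs, and 0 of 13 alternatives called it.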

How the results depend on the processing

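In control TAMs 3 of the 10 genes were called, against 13.0% of all tested genes. With no low-count filter 5 of the 10 were called, against 10.5% of all tested genes. A model of all 8 libraries called 364 genes in all (1493 to 2232 with a library left out). For αMARCO in WT TAMs, DESeq2 called 2 of the 10 genes, the model of all 8 libraries 0 of the 10 and 164 genes in all, no fold change minimum 5487 genes, and the libraries left out 0 to 3 of the 10 and 1940 to 3951 genes. For αMARCO in *Unc93b1* 3d/3d TAMs, genes called in all were 52 with DESeq2, 174 without a filter, 5 with the replicate block, 1 in the model of all 8 libraries and 1 to 5500 with a library left out, and 0 to 3 of the 10. Between αMARCO-treated genotypes these were 195, 107, 97, 108 and 17 to 6366, and 0 to 7 of the 10. For the difference of effects DESeq2 called 1 of the 10 and 200 in all, no filter gave 152, and libraries left out gave 0 to 1 of the 10 and 0 to 6440 in all. Log2 fold changes whose sign turned with a library left out ranged, for αMARCO in WT, from -0.31 to 0.12 for *Cish* and -0.036 to 0.064 for *Stat5b*, in *Unc93b1* 3d/3d from -0.42 to 0.14 for *Jak2*, -0.61 to 0.047 for *Stat4* and -0.30 to 0.74 for *Socs1*, between αMARCO genotypes from -0.31 to 0.71 for *Socs1*, and in the difference from -0.45 to 0.10 for *Jak2* and -1.01 to 0.0062 for *Socs1*. The causes were not tested. The deviations of same-numbered libraries from their group means, in log2 CPM over genes, correlated at -0.077 to 0.135. These low values gave no sign of pairing by replicate number, and a shared day or batch was not tested. With the replicate block 4 of the 10 genes (*Cish* added, adjusted P = 0.00176 by edgeR) and 2395 in all were called between control genotypes. With 2 libraries a group, the spread of *Socs2* (720 and 283 counts) and *Stat4* (587 and 315 counts) within WT control was far wider than counting error.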

Other observations

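Of the 12 cytokine receptors called between the control genotypes, the 6 that were lower in WT were looked at after their values were seen. *Il4ra*, the receptor chain through which IL-4 and IL-13 activate STAT6, had 575 and 460 CPM in WT control and 1116 and 1121 CPM in *Unc93b1* 3d/3d control (log2 -1.13, SE 0.123, adjusted P = 0.000535, edgeR). *Lifr*, a receptor that signals to STAT3, had 46.9 and 42.5 CPM against 74.5 and 82.9 CPM (log2 -0.83, adjusted P = 0.00116, edgeR). *Ifnar1* and *Ifnar2*, the receptor of type I interferon, had log2 fold changes of -0.62 and -0.58 (adjusted P = 0.00325 and 0.00399, edgeR), and *Il13ra1* and *Csf2rb2* had -0.56 and -0.60 (adjusted P = 0.0485 and 0.0121, edgeR). With αMARCO in WT TAMs, *Il4ra* rose to 800 and 698 CPM (log2 0.54, adjusted P = 0.00804, edgeR) and *Ifnar1* from 232 and 209 to 387 and 397 CPM (log2 0.84, adjusted P = 0.000186, edgeR). Both comparisons share the WT control libraries. In *Unc93b1* 3d/3d TAMs with αMARCO, *Il4ra* had 854 and 671 CPM (log2 -0.55, adjusted P = 0.823, edgeR). *Ifnar1* there had 469 and 374 CPM, above both control libraries (log2 0.33, adjusted P = 0.823, edgeR). Between the control genotypes *Il4ra* was called by 10 of 10 alternatives, and *Lifr*, *Ifnar1* and *Ifnar2* by 9, all but the model of all 8 libraries. That model also lost *Csf2rb2* and *Il13ra1*, which were lost as well without WT control replicate 2 or *Unc93b1* 3d/3d control replicate 1, and *Il13ra1* without *Unc93b1* 3d/3d control replicate 2. The rise of *Il4ra* with αMARCO in WT TAMs was called by 7 of 10 alternatives, not without WT control replicate 2 or WT αMARCO replicate 1 or in the model of all 8 libraries, and that of *Ifnar1* by 9 of 10, all but that model.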
